A study of Homo sapiens with 9 samples.

Results

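Deoxynucleotide synthesis and the handling of decitabine were followed through 9 genes in RKO cells, a human colorectal cancer line. The genes were RRM1, RRM2, TYMS, DUT, TK1, DCK, CDA, DCTD and SAMHD1, and every array probe carrying one of these names was kept. This gave 11 of the 50599 probes on the array and 9 of its 36337 gene names. DUT and SAMHD1 each had 2 probes, and the other members had 1.

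The study asked how loss of the DNA methylation regulator UHRF1 and inhibition of histone deacetylases change gene expression in these cells. RKO cells received a control siRNA (siCONT) or siRNA against UHRF1 (siUHRF1) for 72 h and were then kept for 24 h in ethanol, the mock treatment, or in 300 nM trichostatin A (TSA), an inhibitor of histone deacetylases. Each of these 4 groups (siCONT and siUHRF1, without and with TSA) had 2 arrays, and in both siUHRF1 groups replicate 1 carried the first UHRF1 siRNA and replicate 2 the second. A further single array came from RKO cells given 1 µM 5-aza-2'-deoxycytidine (5-aza-dC, decitabine) for 72 h, with no siRNA and hybridised on another slide.

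Cells build DNA from 4 deoxynucleoside triphosphates. Ribonucleotide reductase makes deoxynucleotides from ribonucleotides, thymidylate is supplied by a de novo route and by salvage, and many genes of both routes are transcribed mostly around S phase. Decitabine is a deoxycytidine analogue that uses the same enzymes: it must be phosphorylated by deoxycytidine kinase before it can enter DNA and trap DNA methyltransferases, and deaminases remove it or its monophosphate.

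The probes behind the lower DUT signal under TSA are shown with the coding SAMHD1 probe, the dimmer of that gene's 2 probes. The DUT probes are 60 bases long, lie in the coding part of the gene and each cross an intron, at hg19 chr15:48633763-48634258 and chr15:48633737-48634231 on the plus strand. They share 33 bases, so they are not independent measurements. Within these bases they differ by the substitution C23T, counted from 1 at the 5′ end of A_23_P88484 with that probe's base first. The differing base is in capitals. The SAMHD1 probe lies on the minus strand at hg19 chr20:35533804-35533863.
DUT A_23_P88484: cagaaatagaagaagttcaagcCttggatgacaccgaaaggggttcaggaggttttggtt
DUT A_24_P160874: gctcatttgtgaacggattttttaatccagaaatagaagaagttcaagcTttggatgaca
SAMHD1 A_24_P267592: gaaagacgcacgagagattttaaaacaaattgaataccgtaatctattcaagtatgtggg

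Promoter stretches of 30 bases were also read from RefSeq windows (GRCh38.p14) of 300 bases around each start, to show the letters that members share, and they are given at 1 start each for 7 members, whether or not their signal was called. Capitals mark the E2F-like letters TTTNNCGC or the CCAAT box, searched on both strands. An E2F-like match was present in 6.886% of all 35116 windows and in a window of 4 of the 9 members, DUT, TYMS, CDA and DCK, the last not printed. CCAAT was present in 34.61% of all windows and in a window of 4 members, RRM1, RRM2, TK1 and SAMHD1. The other letters searched were TTTGAA, in 15.16% of windows and 2 members, and GGGCGG, in 44.95% of windows and 6 members. The members have 15 windows among them, so a member had more chances of a match than a single window. A match is a run of letters and was not tested as a binding site.
DUT, E2F-like, chr15:48332152-48332181 (+): ctgGCGGGAAAtttcggtTTTGGCGCgctc
TYMS, E2F-like, chr18:657603-657632 (+): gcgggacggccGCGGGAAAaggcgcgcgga
CDA, E2F-like, chr1:20589083-20589112 (+): cggagctcctgTTTCCCGCtgctctgctgc
RRM1, CCAAT, chr11:4094645-4094674 (+): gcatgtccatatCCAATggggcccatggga
RRM2, CCAAT, chr2:10122661-10122690 (+): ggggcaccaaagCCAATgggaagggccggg
TK1, CCAAT, chr17:78187081-78187110 (-): ggccggctcgtgATTGGccagcacgccgtg
SAMHD1, CCAAT, chr20:36951735-36951764 (-): caggaggCCAATaggctgCCAATactcctt

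The 8 siRNA arrays shared a slide and a scan, with mock and TSA arrays in different rows of the slide and siCONT and siUHRF1 in different columns. The position on the slide and the group cannot be told apart. Signals at the 75th percentile lay between 245 and 338 on these arrays and at 822 on the 5-aza-dC array, and no spot was saturated. Of the epithelial and intestinal markers, KRT8, KRT18 and CDX2 were well above background on all 9 arrays, whereas CDH1 and VIL1 were on none. EPCAM and KRT20 were well above background on 2 arrays each and KRT19 on 3. Among markers of other cell types, PECAM1 was well above background on 0 arrays, PTPRC on 6 and COL1A1 on 9. UHRF1 itself, in log2 signal over the 75th percentile, was 2.69 on both siCONT arrays and 0.36 and 0.07 on the siUHRF1 arrays, a difference of -2.47 (SE 0.14, limma adjusted p = 0.00238). Under TSA it was 2.87 and 2.86 with the control siRNA against -0.34 and -0.62 with UHRF1 siRNA.

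All levels below are log2 of the signal divided by that array's 75th percentile, so they rank arrays for 1 probe and do not rank genes. A gene was called at an adjusted p below 0.05 in limma, fitted to every probe that both arrays of 1 or more groups measured well above background. The brightest probe stood for a gene. All 9 members passed this filter, but CDA passed only through siUHRF1 + TSA, where it was high, and so had to differ there. With 2 arrays a group, p-values measure only the spread between these arrays. In a bulk culture, fewer cells that express a gene and less RNA per cell cannot be told apart.

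**Figure D1:**
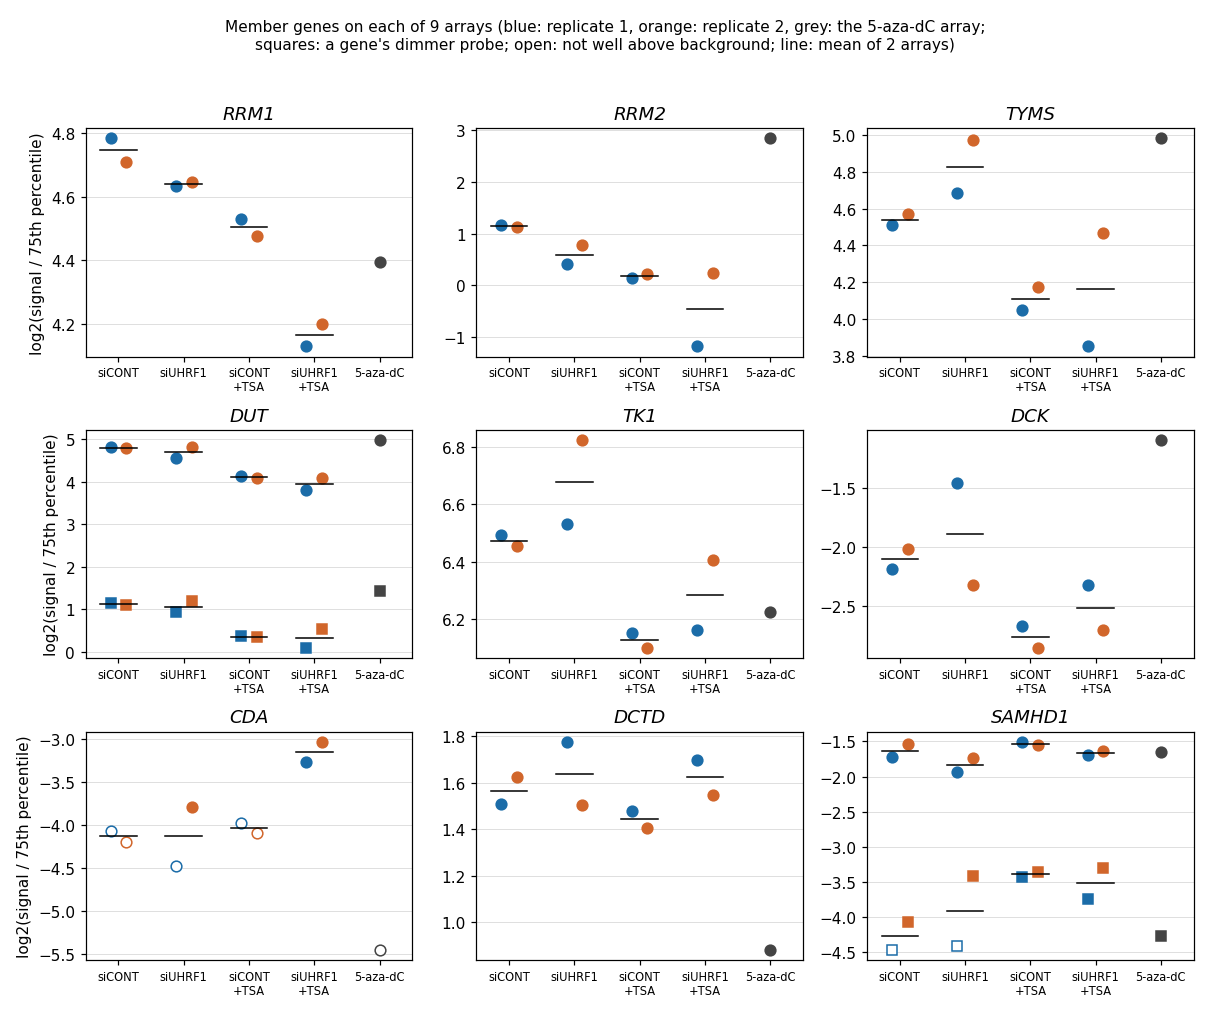
Log2 signal over the array's 75th percentile (vertical axis, a different range in each panel) for the 9 members on 9 arrays in 5 conditions (horizontal axis). Both DUT probes sat lower on all 4 TSA arrays than on all 4 mock arrays, the RRM2 arrays of siUHRF1 + TSA lay at -1.17 and 0.25, and CDA was well above background on 3 of the 9 arrays.

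No member was called in siUHRF1 against siCONT by limma, where 0.637% of all genes were called. At an unadjusted p of 0.05 there were 0 members and 8.93% of all genes. The methods' t-test passed 0 members unadjusted, beside 7.79% of all probes. With adjustment it called 0 of all probes, so its 0 members say nothing particular about them. RRM2, TYMS and TK1 differed by -0.55, 0.29 and 0.20 (limma adjusted p 0.811, 0.803 and 0.781). DCK and SAMHD1 differed by 0.21 and -0.20 (limma adjusted p 0.909 and 0.71). The median difference of the 9 members was 0.00 on the log2 scale, and that of all 17741 genes was also 0.00. The 95% intervals still allowed sizeable changes, from -0.32 to 0.11 for RRM1 up to -1.58 to 0.47 for RRM2.

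With TSA, DUT was called lower in cells with the control siRNA, and DUT and RRM1 were called lower in UHRF1-depleted cells. In siCONT + TSA against siCONT 1 of the 9 members was called, DUT, and it was lower. Of all genes 10.8% were called, and 3.86% were called lower, so 1 of 9 members was near the share of all genes called. At an unadjusted p of 0.05 there were 3 of 9 members, DUT, RRM1 and TK1, beside 29.6% of all genes, so this count was near the background. The median member differed by -0.35, beside 0.08 for all genes, and 7 of 9 members were below 0, beside 40.4% of all genes.

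In siUHRF1 + TSA against siUHRF1 DUT and RRM1 were called lower, 2 of the 8 members besides CDA, where 16.3% of all genes were called and 5.48% were called lower. CDA was called higher and is not counted, since it passed the filter only through siUHRF1 + TSA. The median member differed by -0.47, beside 0.08 for all genes. The TSA comparisons in control and in depleted cells set different arrays against each other, and DUT was called lower in both. They are not independent tests, since all 8 arrays share 1 estimate of the spread. Fitted to only the arrays compared, DUT was called with TSA in control cells but not in depleted cells.

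In siUHRF1 + TSA against siCONT DUT, RRM1 and RRM2 were called lower, 3 of the 8 members besides CDA. CDA was called higher and is again not counted. Of all genes 24.1% were called, and 8.07% were called lower. The median member differed by -0.38, beside 0.07 for all genes.

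Under TSA, UHRF1 depletion changed no member by limma's adjusted p (siUHRF1 + TSA against siCONT + TSA), where 3.80% of all genes were called. RRM1 and CDA, the latter admitted by the filter through its high group, passed an unadjusted p of 0.05, 2 of 9 members beside 17.9% of all genes. The methods' t-test gave the same count unadjusted, beside 15.3% of all probes, and after adjustment it called 0 members and 0 of all probes. The interaction, that is the UHRF1 effect under TSA minus the effect in mock cells, was called for 0 members and for 0.361% of genes. Unadjusted, 1 member passed, CDA, again admitted through its high group, beside 4.94% of genes. The comparisons against siCONT share their control arrays.

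**Figure D2:**
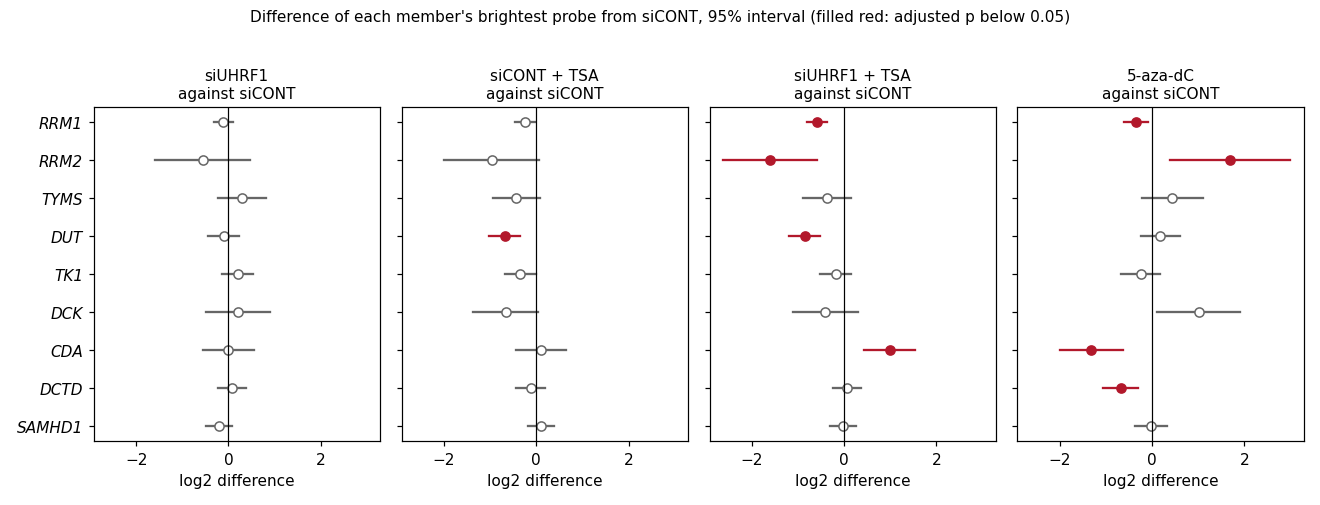
Log2 difference from siCONT (horizontal axis) with its 95% interval for each member (vertical axis) in 4 comparisons, with filled red points for an adjusted p below 0.05. No member was called with siUHRF1, DUT was called with TSA, and RRM2 lay at -1.61 with siUHRF1 + TSA and at 1.69 on the 5-aza-dC array.

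RRM1 and RRM2 encode the large, regulatory subunit and the small, radical-bearing subunit of ribonucleotide reductase. The RRM1 probe (hg19 chr11:4159947-4160006) read 4.78 and 4.71 with siCONT, 4.63 and 4.64 with siUHRF1, 4.53 and 4.48 with siCONT + TSA, and 4.13 and 4.20 with siUHRF1 + TSA. The groups stepped down in this order with no overlap, and the 2 arrays of a group stayed within 0.08 of each other. RRM1 fell by 0.58 (SE 0.09) in siUHRF1 + TSA against siCONT, a 1.49-fold lower signal (limma adjusted p = 0.00762). Against siUHRF1 it fell by 0.47 (SE 0.09, limma adjusted p = 0.0218). The separate steps were not called: the TSA step gave -0.24 (adjusted p = 0.139), the UHRF1 step -0.11 (adjusted p = 0.835) and the UHRF1 step under TSA -0.34 (adjusted p = 0.121). Without siCONT replicate 1 or replicate 2 the combined difference was -0.54 or -0.62 and its limma adjusted p 0.0777 or 0.0591. The TSA difference in depleted cells lost its call without either siCONT array, either siCONT + TSA array or siUHRF1 + TSA replicate 1 (-0.47 to -0.44, adjusted p 0.0645 to 0.0714).

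The RRM2 probe (hg19 chr2:10270487-10270546) read 1.17 and 1.12 with siCONT, 0.41 and 0.78 with siUHRF1, 0.15 and 0.21 with siCONT + TSA, and -1.17 and 0.25 with siUHRF1 + TSA. The siUHRF1 + TSA arrays, made with different siRNAs, differed by 1.42, and only 0.885% of the probes tested differed more between these arrays. The array of the second siRNA lay with siCONT + TSA, and that of the first siRNA lay below every other array. RRM2 fell by 1.61 (SE 0.42) in siUHRF1 + TSA against siCONT (limma adjusted p = 0.0403), with a 95% interval from -2.64 to -0.58. With siUHRF1 + TSA replicate 1 left out it was -0.90, and with replicate 2 left out -2.32. Each of these fits also drops the gap of 1.42 from the spread, so a call in them is no sign of stability. Leaving out any 1 of the other 6 siRNA arrays left -1.64 to -1.58 and lost the call (adjusted p 0.0554 to 0.159). The TSA difference was -0.97 (SE 0.42, adjusted p = 0.194), although the siCONT and siCONT + TSA arrays did not overlap. A random block for the siRNA called the TSA difference in depleted cells (-1.06, adjusted p = 0.0488), which was not called without the block (adjusted p = 0.145). The TSA difference in control cells passed the threshold when either siUHRF1 + TSA array, and with it the gap between them, was left out. Without siUHRF1 + TSA replicate 2 RRM2 was at -1.35 for UHRF1 depletion under TSA and at -1.76 for TSA in depleted cells. Over its alternatives, t-tests aside, the adjusted p of the combined RRM2 difference ran from 0.00401 to 0.159.

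Thymidylate supply rests on TYMS, which methylates dUMP to dTMP, on DUT, which splits dUTP into dUMP and so keeps uracil out of DNA, and on TK1, the cytosolic thymidine kinase of the salvage route. The brighter DUT probe read 4.81 and 4.78 with siCONT, 4.57 and 4.83 with siUHRF1, 4.14 and 4.08 with siCONT + TSA, and 3.80 and 4.08 with siUHRF1 + TSA. Its dimmer probe read 1.14 and 1.10, 0.94 and 1.19, 0.37 and 0.35, and 0.09 and 0.54 in the same order. On both probes every TSA array lay below every mock array. DUT fell by 0.69 with TSA on the brighter probe (SE 0.14, 1.61-fold lower, limma adjusted p = 0.0327) and by 0.76 on the dimmer one (SE 0.17, adjusted p = 0.0407). In siUHRF1 + TSA against siCONT the falls were 0.86 (adjusted p = 0.00891) and 0.81 (adjusted p = 0.0196), and against siUHRF1 0.76 (adjusted p = 0.0201) and 0.75 (adjusted p = 0.0344).

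The size of the DUT difference moved little when arrays were left out, but its call depended on them. The calls over all probes also dropped in each fit that lost a DUT call, so these losses are not particular to DUT. The TSA difference was -0.72 to -0.66 without either siCONT or either siCONT + TSA array, with adjusted p 0.164 to 0.185. The combined difference lost its call without either siCONT array (-0.87 and -0.84, adjusted p 0.0626 and 0.0658). In UHRF1-depleted cells it lost the call without either siCONT array, either siCONT + TSA array or siUHRF1 + TSA replicate 1 (-0.76 to -0.61, adjusted p 0.0511 to 0.0697). UHRF1 depletion gave -0.10 without TSA (95% interval -0.44 to 0.24) and -0.17 with it (-0.50 to 0.17) on the brighter probe.

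TYMS (hg19 chr18:673276-673335) read 4.51 and 4.57 with siCONT, 4.68 and 4.97 with siUHRF1, 4.05 and 4.17 with siCONT + TSA, and 3.85 and 4.47 with siUHRF1 + TSA. As for RRM2, the array of the first siRNA was the lowest of all and that of the second was above both siCONT + TSA arrays. The TSA difference was -0.43 in control cells (limma adjusted p = 0.243) and -0.67 in depleted cells (SE 0.21, adjusted p = 0.0859). The latter was called with a random block for the siRNA (adjusted p = 0.0204), with quantile normalization, spike-in scaling or a trended and robust prior (adjusted p 0.0429 to 0.0499), and without siUHRF1 + TSA replicate 2 (-0.97, adjusted p = 0.0307), and so was the combined difference (-0.69, adjusted p = 0.0474).

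TK1 (hg19 chr17:76170193-76170252) read 6.49 and 6.46 with siCONT, 6.53 and 6.82 with siUHRF1, 6.15 and 6.10 with siCONT + TSA, and 6.16 and 6.41 with siUHRF1 + TSA. Every TSA array lay below every mock array, by a small margin. The differences with TSA were -0.35 in control cells (SE 0.14, limma adjusted p = 0.157) and -0.39 in depleted cells (adjusted p = 0.106). Quantile normalization brought both past the threshold, at adjusted p 0.0308 and 0.0222, and so did a random block for the siRNA, at 0.043 and 0.0259.

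DCK, deoxycytidine kinase, carries out the first phosphorylation of decitabine. Its probe (hg19 chr4:71895933-71895992) read -2.19 and -2.02 with siCONT, -1.46 and -2.33 with siUHRF1, -2.67 and -2.86 with siCONT + TSA, and -2.32 and -2.71 with siUHRF1 + TSA. The siUHRF1 arrays lay on either side of siCONT, and DCK was called in no comparison as reported. TSA in depleted cells gave -1.05 without siUHRF1 replicate 2 (adjusted p = 0.0235). Its TSA difference was -0.66 (95% interval -1.36 to 0.04, limma adjusted p = 0.192) and became 0.05 with normexp background correction.

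CDA and DCTD encode cytidine deaminase, which inactivates decitabine, and deoxycytidylate deaminase, which turns dCMP into dUMP and acts on decitabine monophosphate. CDA was near the detection limit. It entered the test only through siUHRF1 + TSA, where it was high, so its calls in comparisons with that group are no result. Its probe (hg19 chr1:20945069-20945128) read -4.07 and -4.19 with siCONT, -4.47 and -3.79 with siUHRF1, -3.97 and -4.10 with siCONT + TSA, and -3.26 and -3.04 with siUHRF1 + TSA. Only the last pair and siUHRF1 replicate 2 were well above background. Against siCONT, where neither array measured it well above background, the signal with siUHRF1 + TSA was 1.98-fold higher (limma adjusted p = 0.0261). The siCONT values were uncertain, and both lay above the dimmest signals well above background on their arrays (-4.36 and -4.28). The fold is therefore an estimate and not a lower bound. Against siUHRF1 the difference was 0.98 (SE 0.22, adjusted p = 0.0361), with 1 of the 2 siUHRF1 arrays above background. The combined call was lost without any 1 of the siCONT, siCONT + TSA or siUHRF1 + TSA arrays (0.87 to 1.10, adjusted p 0.0526 to 0.135). That against siUHRF1 was lost without any 1 array other than siUHRF1 replicate 2 (0.64 to 1.10, adjusted p 0.0527 to 0.127). The UHRF1 step under TSA (0.89, adjusted p = 0.107) was called when either siUHRF1 array was left out (adjusted p = 0.023). With normexp correction the called differences were 0.26 (adjusted p = 0.631) and 0.34 (adjusted p = 0.548).

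DCTD (hg19 chr4:183812036-183812095) stayed between 1.41 and 1.78 on all 8 siRNA arrays. Its differences among the siRNA comparisons ran from -0.12 with TSA to 0.18 for UHRF1 depletion under TSA, none of them called, and the 95% interval of the TSA difference was -0.43 to 0.18.

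SAMHD1 hydrolyses deoxynucleoside triphosphates and thereby opposes synthesis. Its brighter probe (hg19 chr20:35520759-35520818) read -1.72 and -1.54 with siCONT, -1.93 and -1.74 with siUHRF1, -1.51 and -1.56 with siCONT + TSA, and -1.69 and -1.63 with siUHRF1 + TSA. The dimmer, coding probe printed above read -4.46 and -4.07, -4.41 and -3.41, -3.43 and -3.35, and -3.74 and -3.30 in the same order, and was below background on replicate 1 of siCONT and of siUHRF1. In the siRNA comparisons the dimmer probe entered the test only through the TSA groups, so its rise with TSA is no result. With TSA the brighter probe gave 0.10 (95% interval -0.18 to 0.37, limma adjusted p = 0.615) and the dimmer one 0.87 (SE 0.34, adjusted p = 0.153). The difference between the 2 probes was not tested. Neither was called in any comparison.

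The siUHRF1 arrays of replicate 1 and 2, made with different siRNAs, were also compared with each other. The sign of replicate 1 minus replicate 2 was the same without and with TSA for all 9 members in the siUHRF1 groups, beside 68.2% of the probes tested, and for 5 of 9 members in the siCONT groups, beside 53.0%. RRM2, TYMS, DUT and TK1 were lower with the first siRNA, by 0.37, 0.29, 0.26 and 0.29 without TSA and by 1.42, 0.62, 0.29 and 0.24 with TSA. DCK was higher with it, by 0.86 and 0.38, and RRM1 differed by 0.01 and 0.07. The median absolute difference of all probes was 0.26 between the siUHRF1 arrays and 0.19 between the siUHRF1 + TSA arrays, against 0.07 for siCONT and 0.08 for siCONT + TSA. The siRNA and the replicate cannot be told apart, since each siRNA has 1 array per treatment.

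**Figure D3:**
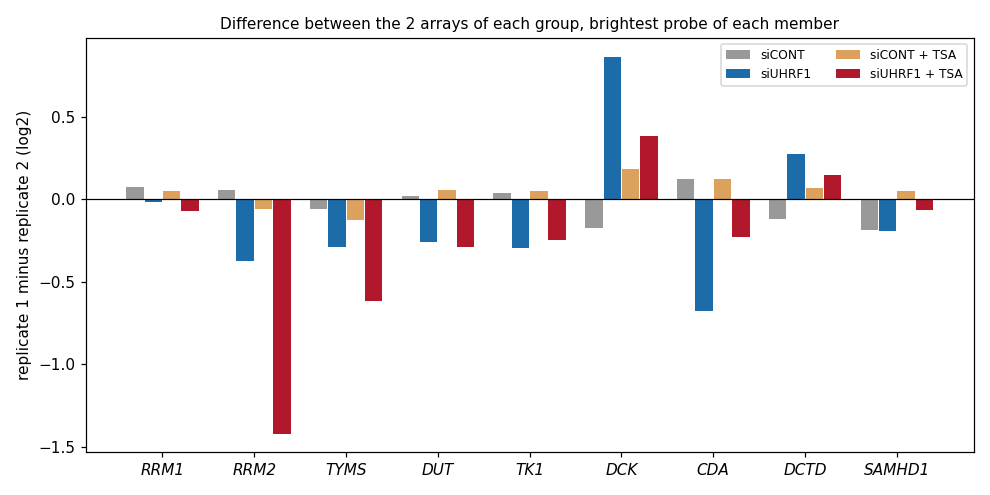
Log2 signal of replicate 1 minus replicate 2 (vertical axis) for each member (horizontal axis), with a bar for each siRNA group of 2 arrays and no error bar. The siCONT and siCONT + TSA bars stay within 0.19 of 0, and the longest bar is RRM2 in siUHRF1 + TSA, -1.42.

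On the single 5-aza-dC array RRM2 was higher and RRM1 and DCTD were lower than in siCONT. CDA was called lower but was below background in both groups, so no fold is given. These were 4 of 9 members, where 48.9% of all genes were called, and so the share of members called was near that of all genes. Treatment, the lack of siRNA, slide and scan cannot be told apart here, and the spread of the lone array was taken from the siRNA groups. RRM2 read 2.83 on this array, above all siRNA arrays, a difference of 1.69 (SE 0.53, limma adjusted p = 0.0424). RRM1 read 4.40, below 6 of the 8 siRNA arrays, a difference of -0.35 (SE 0.11, adjusted p = 0.0411), so the reductase subunits moved in opposite directions after scaling on the 75th percentile. DCTD read 0.88, below all siRNA arrays, a difference of -0.68 (SE 0.16, adjusted p = 0.0147).

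DCK read -1.10, the highest of the 9 arrays, a difference of 1.01 (SE 0.36, limma adjusted p = 0.0634). It was called with the median shift (1.12, adjusted p = 0.0482), with only probes above background on every array (adjusted p = 0.0444), with a trended and robust prior (adjusted p = 0.0474) and without either siUHRF1 array (adjusted p = 0.0137). TYMS read 4.98, DUT 4.98, TK1 6.22 and SAMHD1 -1.64, and none of them was called. These directions rest on the scaling. With the spike-in probes in place of the 75th percentile the median of all probes moved to -1.68. RRM2 was then at -0.0047 (adjusted p = 0.993), still above that median, TYMS was at -1.25 and DUT at -1.51, both called lower, and RRM1 and DCTD were at -2.04 and -2.38. The RRM2 call was lost without any 1 of the siCONT, siUHRF1 or siCONT + TSA arrays (1.66 to 1.72, adjusted p 0.0639 to 0.115), that of RRM1 without any 1 of the siCONT or siCONT + TSA arrays (-0.39 to -0.31, adjusted p 0.0923 to 0.176), and that of DCTD without siCONT replicate 2 (-0.63, adjusted p = 0.0707).

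A list of 54 companion genes of nucleotide metabolism was read in the same way, 49 of them testable in the siRNA comparisons and 50 against 5-aza-dC. None was called with siUHRF1 against siCONT. With TSA 0 rose and 5 fell, with siUHRF1 + TSA 4 rose and 9 fell, and with TSA in depleted cells 1 rose and 6 fell. Of all genes 10.8%, 24.1% and 16.3% were called in these comparisons, and 3.86%, 8.07% and 5.48% were called lower. The companions called in either direction were near the background. Those that fell made up a larger share than that of all genes called lower, and this excess was not tested. No companion was called for UHRF1 depletion under TSA or for the difference between effects. On the 5-aza-dC array 3 rose and 20 fell, where 24.1% of all genes were called lower and 48.9% in either direction. Other processing gave 2 higher and 9 lower with normexp, 6 and 15 with the median shift, and 1 and 47 with spike-in scaling. The median companion differed by -0.03 with TSA and by -0.30 with 5-aza-dC, where it was -0.12, -0.19 and -1.995 under those settings.

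The folate cycle, which carries the one-carbon units for TYMS, held 3 of the 5 companions that fell with TSA, namely SHMT1, SHMT2 and MTHFD2. These 3 genes also fell with siUHRF1 + TSA and with TSA in depleted cells. MTHFD2, a mitochondrial enzyme of that cycle, read 4.86 and 4.88 with siCONT, 4.93 and 4.78 with siUHRF1, 3.63 on both siCONT + TSA arrays, and 3.77 and 3.39 with siUHRF1 + TSA. It fell by 1.24 with TSA (SE 0.14, 2.37-fold lower, limma adjusted p = 0.0109) and by 1.29 with siUHRF1 + TSA (adjusted p = 0.00295), and stayed called in the TSA and combined comparisons under all 6 scalings and corrections tried. SHMT1, a cytosolic serine hydroxymethyltransferase, fell by 0.83 with TSA (adjusted p = 0.0102) and by 0.84 with siUHRF1 + TSA (adjusted p = 0.00244). On the 5-aza-dC array SHMT1, SHMT2, MTHFD1 and MTHFD2 fell by 0.57 to 1.05.

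Among the other companions, UPP1, uridine phosphorylase, fell by 1.53 with TSA (limma adjusted p = 0.0258) and by 1.19 with siUHRF1 + TSA (adjusted p = 0.0291). NT5C3A, a pyrimidine nucleotidase, fell by 0.65 with TSA (adjusted p = 0.0156), by 0.77 with siUHRF1 + TSA (adjusted p = 0.00387) and by 0.63 with TSA in depleted cells (adjusted p = 0.0117). GLRX, a glutaredoxin that can reduce ribonucleotide reductase, rose by 0.76 with siUHRF1 + TSA (adjusted p = 0.0314), ITPA, which removes deaminated purine nucleotides, by 0.63 (adjusted p = 0.00553), and ATIC of purine synthesis by 0.41 (adjusted p = 0.0347). ITPA also rose by 0.40 with TSA in depleted cells (adjusted p = 0.0321). With spike-in scaling, which moved the median of all probes by -0.12 with TSA and -0.11 with siUHRF1 + TSA, no companion was called higher.

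RRM2B, the small subunit induced by p53, read -0.62 and -0.56 with siCONT, -0.17 and -0.95 with siUHRF1, -1.05 and -1.22 with siCONT + TSA, -1.09 and -1.34 with siUHRF1 + TSA, and 0.53 on the 5-aza-dC array. It rose by 1.11 with 5-aza-dC (SE 0.32, limma adjusted p = 0.0299) and was at -0.58 there with spike-in scaling. With TSA it was at -0.55 (adjusted p = 0.212). SLC29A1, the equilibrative transporter through which decitabine enters cells, fell by 0.58 with 5-aza-dC (adjusted p = 0.0174) and was not called in the siRNA comparisons, where its difference ran from -0.16 to 0.06.

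NT5E, the cell-surface nucleotidase, entered the test only through the 5-aza-dC array, where it was high, and so had to differ, and its call is no result. It was not well above background in siCONT and at least 2.54-fold higher on the 5-aza-dC array, and its difference was 0.11 with normexp correction. The bound of 2.54 takes, on each siCONT array, the larger of the probe's own value and the dimmest signal well above background. NT5M, the mitochondrial deoxynucleotidase, fell by 2.35 (limma adjusted p = 0.000534), SLC29A2, a second equilibrative transporter, by 1.84 (adjusted p = 0.000207) and ABCC5, a nucleotide exporter, by 1.22 (adjusted p = 0.00063). These 3 falls were called under all 6 scalings and corrections.

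**Figure D4:**
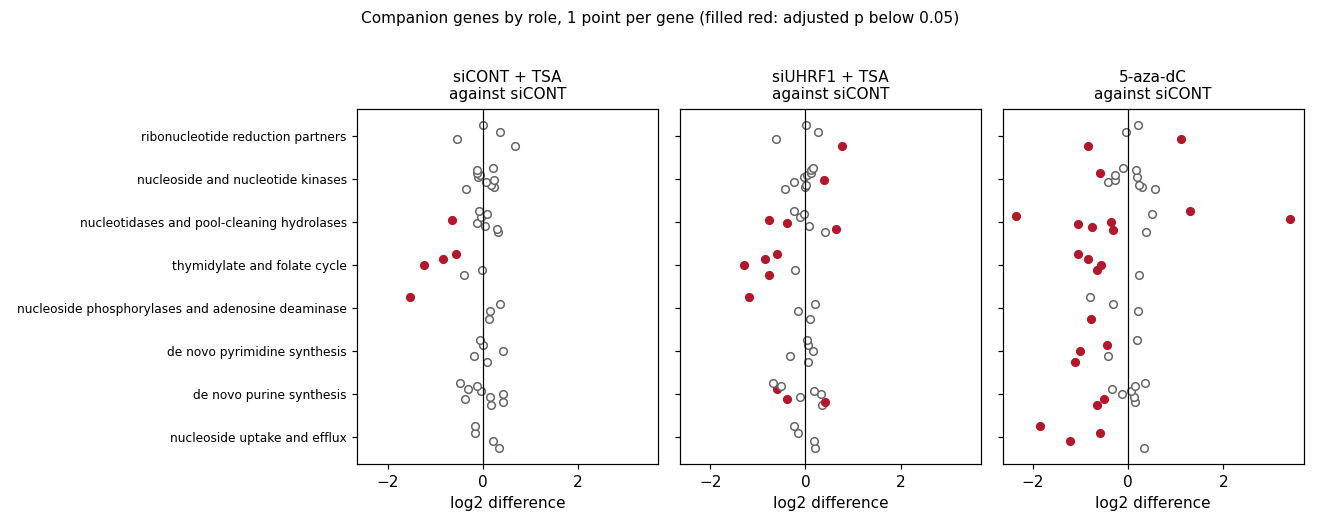
Log2 difference from siCONT (horizontal axis) of the companion genes tested, 1 point per gene, grouped by role (vertical axis), with filled red points for an adjusted p below 0.05 in 3 comparisons. The red points number 0 above and 5 below 0 with TSA, 4 above and 9 below with siUHRF1 + TSA, and 3 above and 20 below with 5-aza-dC.

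The genes most like each member were ranked by Pearson's r over the 8 siRNA arrays among 12624 genes well above background on all of them, as a description, since these arrays form 4 groups and share a slide. DUT was most like RAD51C (r = 0.997), SMAD9 (0.996) and PCNA (0.995). RRM1 was most like MCOLN3 (0.993), DMXL1 (0.991) and ANKRD44 (0.99). RRM2 was most like PKP4 (0.989), WDHD1 (0.988) and HOMEZ (0.987), and TYMS was most like DND1 (0.987), ADI1 (0.986) and TENT5C (0.985). For TK1 these were CENPM (0.996), EIF2AK1 (0.994) and NUDT17 (0.986), and for DCK RNF6 (0.994), PJA2 (0.991) and ADNP2 (0.991). CDA, above background on 3 of these arrays, was most like MAGEA6 (0.997), NRN1L (0.988) and CRYBA2 (0.984). The values were lower for DCTD, with IFT46 (0.963), USP34 (0.962) and DCTN4 (0.952), and for SAMHD1, with USP6NL (0.968), EN2 (0.959) and MYMK (0.944). Among the members themselves r was highest between TYMS and TK1 (0.943) and between RRM1 and DUT (0.891), and lowest between RRM1 and CDA (-0.834).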

How the data were processed

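RNA of RKO cells was hybridised in 1 colour to Agilent SurePrint G3 Human GE v2 arrays. The authors extracted spot intensity with Feature Extraction 10.7.3.1, which subtracts background, does not normalize between arrays and is also the source of the deposited table of rounded values. Here, outlier spots were dropped, the array's 75th percentile was subtracted on the log2 scale and spots of a probe were averaged. limma 3.58.1 in R 4.3.3 (lmFit, eBayes, Benjamini-Hochberg) modelled the 4 siRNA groups on their 8 arrays, with the 9th array added for 5-aza-dC, and was tested on simulated data. The number of arrays limits the precision. Named were all members, UHRF1, RRM2B and SLC29A1, per comparison up to 3 companions with the largest rise and fall among those called without overlap, and 3 genes most like each member; SHMT2 and MTHFD1 were named after their values were seen, and some companion results are not reported here. The members and lists were chosen with earlier results of these data known. The methods' t-test used an unadjusted p below 0.05. Other background corrections, scalings, filters, blocks, tests and left-out arrays were tried. Groups came from the sample labels.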

Additional observations from a re-analysis of the deposited data

How the results depend on the processing

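Of 1433 alternative values of single members, 1301 kept their side of the threshold, 78 lost a call, 51 gained one and 3, called before or after, turned in sign. A further 51 changed sign but were called neither before nor after. The 3 were the 5-aza-dC differences of RRM2, TYMS and DUT, at -0.0047, -1.25 and -1.51 with spike-in scaling. The counts that follow include CDA, although its calls with siUHRF1 + TSA are not counted in the results above. With normexp 2 members were called with siUHRF1 + TSA (RRM2 and DUT), beside 7.13% of all probes. It called 1 with TSA in depleted cells (DUT), beside 3.37%, and 2 with 5-aza-dC (RRM2 and CDA), beside 36.3%. Quantile normalization gave 2 with TSA (DUT and TK1), beside 10.8% of all probes, and 5 with TSA in depleted cells, beside 16.8%. Spike-in scaling gave 1 with UHRF1 depletion under TSA (CDA), beside 2.89% of all probes, and 7 with 5-aza-dC, beside 85.5%. With no filter on dim probes 50599 probes entered, and 0 members were called with TSA, beside 1.32% of all probes. There were 2 with siUHRF1 + TSA (RRM1 and DUT), beside 7.27%, and 0 with TSA in depleted cells, beside 3.74%. A random block for the siRNA gave 3 with TSA (RRM1, DUT and TK1), beside 24.97% of all probes, and 6 with TSA in depleted cells (RRM1, RRM2, TYMS, DUT, TK1 and CDA), beside 30.3%. A fit to only the arrays compared gave 6 with TSA, beside 39.1%, and 0 with TSA in depleted cells, beside 2.19%. A trended and robust prior gave 1 with UHRF1 depletion under TSA (RRM1), beside 4.55%. At an unadjusted limma p these counts were 3 with TSA, beside 28.9% of all probes, and 2 with UHRF1 depletion under TSA, beside 17.4%. They were 6 with TSA in depleted cells, beside 32.7%, and 1 for the difference between effects, beside 4.91%. The methods' t-test with adjustment called 3 with TSA (RRM2, DUT and TK1), beside 18.3% of all probes. It called 0 with siUHRF1 + TSA, beside 1.04%, and 0 with TSA in depleted cells, beside 0.0042%. Unadjusted it called 6 with TSA, beside 41.4%, 2 with UHRF1 depletion under TSA, beside 15.3%, and 1 with TSA in depleted cells, beside 14.1%. Leaving out each array in turn gave 0 to 2 members with TSA, 0 to 4 with siUHRF1 + TSA, 0 to 1 with UHRF1 depletion under TSA, 0 to 4 with TSA in depleted cells and 1 to 4 with 5-aza-dC. A lone array left in a group was then assumed to spread like the others, and fewer arrays leave less power. Without a siCONT or siCONT + TSA array the calls over all probes also dropped in every comparison. The remaining counts of members stayed within 1.5 times. Over all probes the adjusted calls ran from 43 to 9278 with TSA (2469 as reported), from 246 to 7724 with siUHRF1 + TSA (5514), from 1 to 7194 with TSA in depleted cells (3671), from 0 to 1208 with UHRF1 depletion under TSA (839), from 0 to 171 with siUHRF1 (132), from 0 to 182 for the difference between effects (90) and from 9344 to 23232 with 5-aza-dC (13283). The cause of each change was not tested.

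Deviations of same-numbered arrays from their group means correlated at 0.47 between siUHRF1 and siUHRF1 + TSA, whose numbers mark the siRNA. Between the other groups they correlated at -0.05 to 0.08, so the numbers were not taken as pairs over all groups. The main fit thus leaves out the shared siRNA of the siUHRF1 groups, which the random block above takes in. A replicate block left the member counts at 0 with siUHRF1, beside 0.573% of all probes, and 1 with TSA, beside 8.71%. They were 4 with siUHRF1 + TSA, beside 22.4%, and 0 with UHRF1 depletion under TSA, beside 3.14%. With TSA in depleted cells the count was 3, beside 13.9%, and for the difference between effects 0, beside 0.299%. The counts of 4 and 3 include CDA, which passed the filter only through siUHRF1 + TSA and is not counted in the results above. Signal over background limits CDA, read above it on 3 of the 9 arrays.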
